A study of Sus scrofa with 28 samples.

Results

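Collagen folding and lysyl oxidase cross-linking were followed through 5 genes in loin muscle of piglets: SERPINH1, FKBP10 and FKBP14, which act on collagen inside the cell, and LOX and LOXL1, which act on it outside. A probe set belonged to the group when the study's own table of differential probe sets gave it one of these gene symbols or, where that table held no entry for it, when the platform annotation did. This gave 7 probe sets of the 5226 in the deposited matrix, with at least 1 for each of the 5 genes: 2 for LOX, 2 for FKBP14 and 1 for each of the others. Of the 7, 5 stand in the study's table, which was drawn up on these same arrays, so that their direction is not independent evidence. The other 2, FKBP14 Ssc.20986.1.S1_at and SERPINH1 Ssc.11235.1.S1_at, are named by the platform annotation alone, and LOX Ssc.8224.1.S1_at by the study's table alone. The matrix holds only probe sets that varied enough across the arrays, and probe sets of these genes that this filter removed are not analysed here.

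The samples were Longissimus dorsi (loin) muscle of male piglets slaughtered at weaning, at 28 days of age, and hybridized one piglet per array to the Affymetrix Porcine Genome Array. There were 14 crossbred piglets (DU×IB, Duroc sire and Iberian sow) and 14 purebred Iberian piglets (IB, Iberian sire and Iberian sow), so that every piglet had an Iberian mother and the groups differed in the sire. The crossbred piglets came from fewer litters than the purebred ones and the labels do not tie piglets to litters, so littermates were treated as independent animals and the p-values do not allow for a shared litter. The muscle was taken whole, so fewer cells of a type and less RNA per cell cannot be told apart in any of the values.

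Values are log2 levels after GCRMA normalization, and a difference is DU×IB minus IB on that scale. The arrays were hybridized in 2 series, of 16 and 12 arrays, each with equal numbers of both genetic types (8 and 8, 6 and 6). The labels do not name the series, and it was read from the spike-in controls, whose mean level lay between 8.93 and 9.68 in the series of 16 and between 6.19 and 7.01 in the series of 12. The series separated the arrays along the first principal component, which held 47.3% of the variance, and the median probe set was 0.57 higher in the series of 12. Array medians ran from 6.24 to 7.05 in DU×IB and from 6.01 to 7.02 in IB. Results are therefore given over all 28 arrays, with the series as a block where that changed a call, and within each series. Of the 13 skeletal myofibre markers chosen to check the tissue, only 2 had a probe set of their name in the variation-filtered matrix. They were RYR1 (12.63 ± 0.51 in DU×IB and 12.61 ± 0.41 in IB) and PYGM (8.88 ± 0.51 and 9.00 ± 0.89, in the same order, SD, n = 14 each).

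Fibrillar collagen is made in the endoplasmic reticulum of fibroblasts and related cells, where its chains are hydroxylated, folded from one end into a triple helix and escorted by dedicated chaperones. SERPINH1 encodes HSP47, a chaperone that binds the finished helix, while FKBP10 (FKBP65) and FKBP14 (FKBP22) are peptidyl-prolyl isomerases that help the chains turn at their many prolines. After secretion, LOX and LOXL1 are copper-dependent amine oxidases that convert lysines of collagen and elastin to reactive aldehydes, from which the covalent cross-links of the fibre form. LOX is best known for fibrillar collagen and LOXL1 for elastic fibres. In muscle this matrix surrounds fibres and bundles, and its cross-links contribute to the toughness of meat.

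Most of the group was higher in DU×IB. Over the 28 arrays, LOX and LOXL1 rose in DU×IB by 0.82 to 1.09, about 1.77-fold to 2.12-fold (3 probe sets, adjusted p between 0.0530 and 0.0924 by limma with Benjamini-Hochberg adjustment over all 5226 probe sets). FKBP10 and FKBP14 Ssc.6848.1.A1_at had differences of the same order, 0.75 and 0.82, which did not pass the threshold of an adjusted p under 0.10 in that fit and passed with the series as a block. SERPINH1 had a difference of 0.47 and FKBP14 Ssc.20986.1.S1_at one of −0.16, and neither passed. Thus 3 of 7 probe sets were called higher without the block, where 0.765% of all probe sets were called in that direction, and 5 of 7 with it, where 2.07% were. The calls depended on the array scale: with each array centred on its median or quantile normalized, without the block, LOX and LOXL1 did not pass (3 probe sets, limma, adjusted p between 0.125 and 0.187) and FKBP14 Ssc.6848.1.A1_at did (0.0486 and 0.0594). The median difference was 0.82 over the 7 probe sets and 0.02 over all probe sets, the 5th and 95th percentiles of which were −0.45 and 0.53. The 5 probe sets called with the block are the 5 that stand in the study's table. Neither the counts of calls nor this median is therefore independent evidence of an excess.

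**Figure D1:**
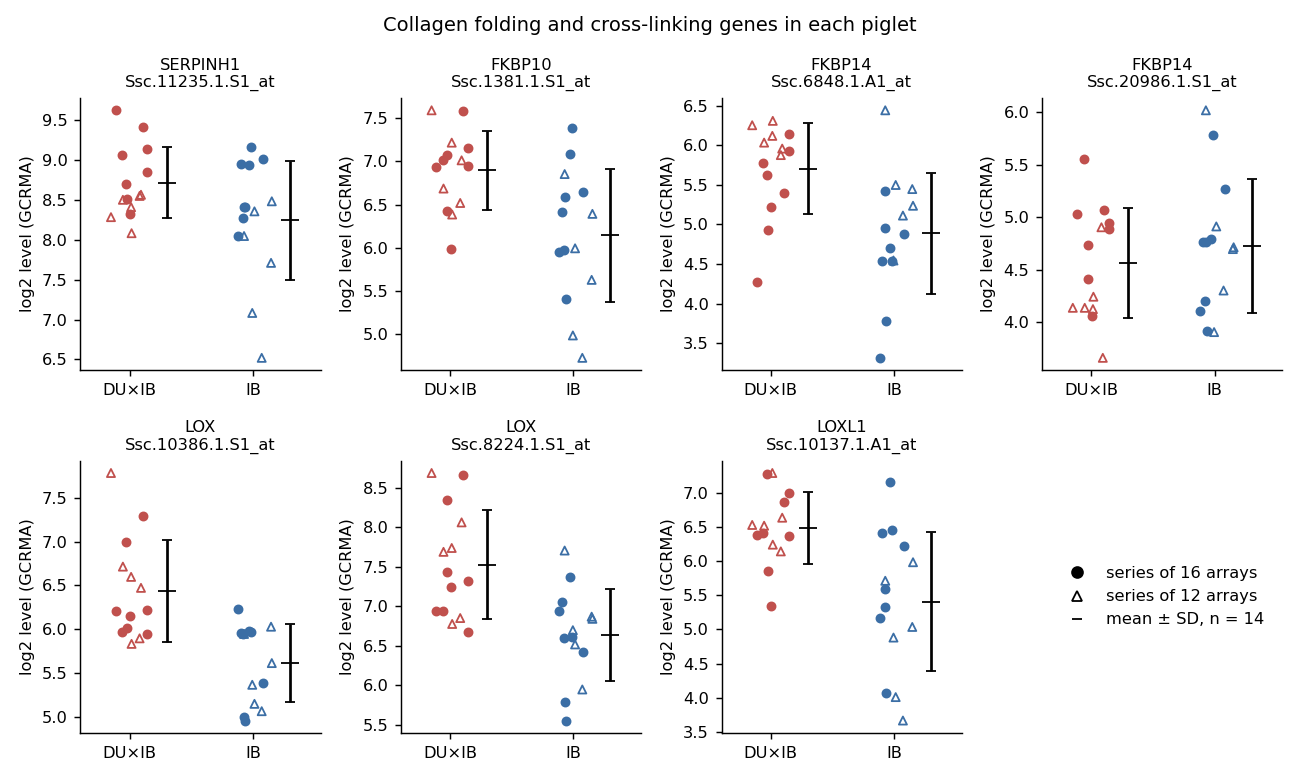
Log2 level (GCRMA) of each of the 7 probe sets in each piglet, DU×IB left and IB right; filled circles are arrays of the series of 16, open triangles those of the series of 12, and bars the mean ± SD (n = 14). The 14 DU×IB piglets lie above the IB median for both LOX probe sets, while the FKBP14 probe set Ssc.20986.1.S1_at has 6 of 14 above it.

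SERPINH1, the collagen chaperone, was the member with the smallest difference among those higher in DU×IB. Its level was 8.08 in the lowest, 8.56 in the median and 9.62 in the highest DU×IB piglet, against 6.52, 8.38 and 9.16 in IB. The groups overlapped, with 11 of 14 DU×IB piglets above the IB median and 2 above every IB piglet. Of the 14 IB piglets, 5 lay below every DU×IB piglet. The low end was made by IB piglets of the series of 12: the lowest pair, IB replicates 12 and 9, read 6.52 and 7.08. The means were 8.72 ± 0.45 in DU×IB and 8.24 ± 0.75 in IB (SD, n = 14 each), a difference of 0.47 (95% confidence interval −0.004 to 0.95, limma, adjusted p = 0.586). With the series as a block the interval was 0.10 to 0.85 and the adjusted p was 0.213. SERPINH1 was 0.75 lower in the series of 12 than in the series of 16, whereas the median probe set was higher there. Within the series the difference was 0.30 on the 16 arrays and 0.70 on the 12.

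FKBP10, the isomerase whose loss causes brittle bone disease with joint contractures in humans, read 5.99 in the lowest, 6.98 in the median and 7.59 in the highest DU×IB piglet. In IB the same order gave 4.73, 6.19 and 7.39. All but 1 of the 14 DU×IB piglets lay above the IB median, but only 2 lay above every IB piglet. IB also spread more widely, with a mean of 6.90 ± 0.45 in DU×IB and 6.14 ± 0.77 in IB (SD, n = 14 each). The difference of 0.75 (SE 0.24), or 1.68-fold, had an adjusted p of 0.220 over the 28 arrays and of 0.0929 with the series as a block (limma). That call lies close to the threshold and was lost in 21 of the 28 fits that left out 1 piglet. The difference was 0.46 in the series of 16 and 1.14 in the series of 12, with an adjusted p of 0.997 and of 0.107.

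FKBP14, the smaller isomerase of the pair, gave 2 answers. Ssc.6848.1.A1_at read 4.28 in the lowest, 5.90 in the median and 6.31 in the highest DU×IB piglet, against 3.32, 4.92 and 6.44 in IB. Here 13 of 14 DU×IB piglets exceeded the IB median, and the highest value of all came from an IB piglet, replicate 14. Its mean was 5.70 ± 0.57 in DU×IB and 4.89 ± 0.77 in IB (SD, n = 14 each), a difference of 0.82 (SE 0.25). The adjusted p was 0.187 over the 28 arrays and 0.0330 with the series as a block (limma). Without that block, leaving out IB replicate 14 alone gave 0.0475 and leaving out DU×IB replicate 3 alone 0.0632.

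The other FKBP14 probe set, Ssc.20986.1.S1_at, did not show this difference. It read 3.66 in the lowest, 4.57 in the median and 5.55 in the highest DU×IB piglet, and 3.91, 4.74 and 6.02 in IB. The groups lay on top of each other, with means of 4.57 ± 0.53 in DU×IB and 4.72 ± 0.64 in IB (SD, n = 14 each). The difference was −0.16, with a 95% confidence interval of −0.62 to 0.30 (limma, adjusted p = 0.998). It was 0.14 in the series of 16 and −0.56 in the series of 12, so that its sign was not the same in the series.

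The disagreement between the FKBP14 probe sets was then measured within each piglet. The level of Ssc.6848.1.A1_at minus that of Ssc.20986.1.S1_at ran from −0.75 to 2.29 in DU×IB, with a median of 1.10, and from −1.24 to 0.81 in IB, with a median of 0.47. In 10 of 14 DU×IB piglets it lay above every IB piglet. The mean of this within-piglet difference was 0.97 higher in DU×IB (SE 0.29, two-sided permutation test, p = 0.00281, 0.00562 after adjustment over the 2 genes with paired probe sets). It was 0.75 higher in the series of 16 (exact permutation test, adjusted p = 0.0811) and 1.27 higher in the series of 12, where the groups did not overlap (exact permutation test, adjusted p = 0.00433). Groups did not overlap, in either direction, for 2.43% of single probe sets in that series, and the share for pairs was not computed. The study's table, drawn up on these same arrays, holds Ssc.6848.1.A1_at and not Ssc.20986.1.S1_at. These p-values are therefore not independent evidence of a disagreement. The probe sets also stood differently in the series. Ssc.6848.1.A1_at was 0.77 higher in the series of 12 and Ssc.20986.1.S1_at 0.29 lower. In the series of 16, the correlation with the array's median level over the 16 piglets was 0.70 for Ssc.6848.1.A1_at and 0.05 for Ssc.20986.1.S1_at. Over the 12 piglets of the other series, where the disagreement was 1.27, it was −0.25 and 0.02, and the part of the array's level in the disagreement was not tested.

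Another probe set carries the same name in part. Ssc.20986.2.S1_at is FKBP14 in the platform annotation but GRN, the gene of the growth factor progranulin, in the study's table, and by the rule above it counts as GRN. It read 6.86 in the lowest, 7.64 in the median and 8.37 in the highest DU×IB piglet, against 4.88, 6.95 and 8.39 in IB. Its difference of 0.77 (SE 0.25, limma, adjusted p = 0.220, and 0.0881 with the series as a block) lay beside that of FKBP14 Ssc.6848.1.A1_at (Ssc.6848.1.A1_at minus Ssc.20986.2.S1_at 0.05 higher in DU×IB, SE 0.13, permutation test, p = 0.718, unadjusted). Against FKBP14 Ssc.20986.1.S1_at, with which it shares the first part of its identifier, it differed by 0.93 (SE 0.23, permutation test, p = 0.00055, unadjusted). Since Ssc.20986.2.S1_at stands in the study's table and Ssc.20986.1.S1_at does not, this p-value is not independent evidence either. No probe sequences were used here, so the transcript each probe set reads was not settled.

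**Figure D2:**
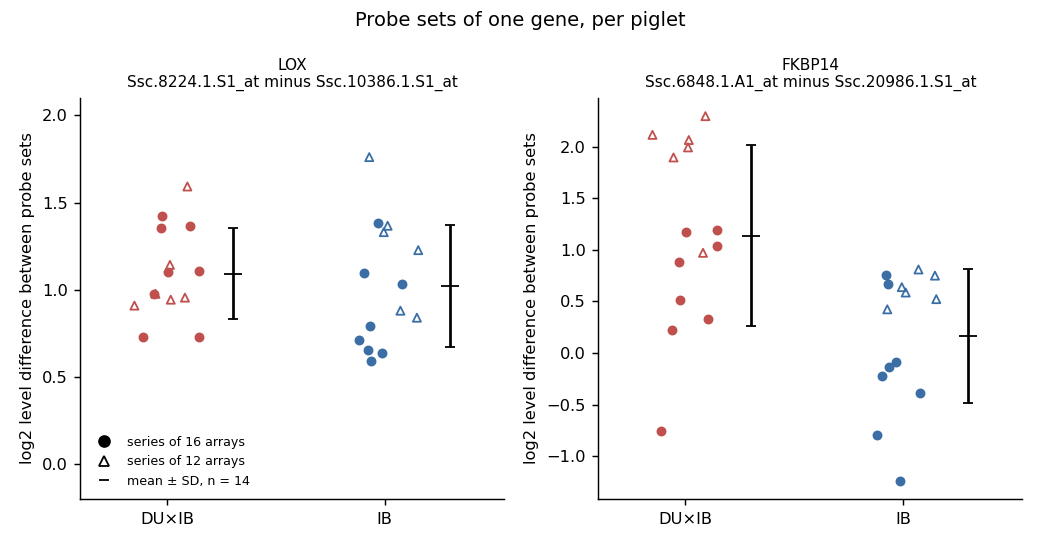
Within-piglet difference in log2 level between the probe sets of LOX (left panel) and of FKBP14 (right panel), DU×IB left and IB right in each; circles are arrays of the series of 16, open triangles those of the series of 12, and bars the mean ± SD (n = 14). For LOX the groups overlap over most of their range, while for FKBP14 10 of the 14 DU×IB piglets lie above every IB piglet.

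LOX was read by 2 probe sets, and it was higher in DU×IB on both. Ssc.10386.1.S1_at was at 5.83 in the lowest, 6.21 in the median and 7.78 in the highest DU×IB piglet, against 4.96, 5.78 and 6.23 in IB. Every DU×IB piglet lay above the IB median, and 6 of 14 lay above every IB piglet. Ssc.8224.1.S1_at was at 6.67, 7.38 and 8.69 in DU×IB and at 5.55, 6.65 and 7.71 in IB, in the same order. Again all 14 DU×IB piglets exceeded the IB median. On both probe sets DU×IB replicates 10 and 7 were the highest pair of that group and IB replicates 1 and 8 the lowest of theirs, while the lowest DU×IB pair and the highest IB pair were not the same animals.

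The LOX difference was 0.82 (SE 0.21, 1.77-fold, limma, adjusted p = 0.0530) on Ssc.10386.1.S1_at, with means of 6.44 ± 0.58 in DU×IB and 5.62 ± 0.45 in IB (SD, n = 14 each). On Ssc.8224.1.S1_at it was 0.89 (SE 0.24, 1.85-fold, limma, adjusted p = 0.0924), with means of 7.53 ± 0.69 in DU×IB and 6.64 ± 0.59 in IB (SD, n = 14 each). With the series as a block the adjusted p fell to 0.0241 and 0.0439. The 2 LOX estimates differed by less than their error: the within-piglet difference between the probe sets was 0.07 higher in DU×IB (SE 0.12, permutation test, p = 0.550). Within the series the genetic types differed by 0.67 and 0.90 on the 16 arrays and by 1.02 and 0.87 on the 12, in the order of the probe sets above (interaction, limma, p = 0.387 and 0.948, unadjusted).

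Over the 28 arrays these calls depended on single piglets. Ssc.10386.1.S1_at lost its call without DU×IB replicate 7 (adjusted p = 0.110), IB replicate 8 (0.106) or IB replicate 12 (0.103). Ssc.8224.1.S1_at, close to the threshold, lost it without any 1 of 18 piglets, the adjusted p reaching 0.189, although the difference stayed between 0.80 and 0.97. With the series as a block, neither probe set lost its call in any of the 28 fits.

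LOXL1 showed the largest difference of the group and the widest spread in IB. Ssc.10137.1.A1_at read 5.34 in the lowest, 6.47 in the median and 7.30 in the highest DU×IB piglet, against 3.66, 5.46 and 7.16 in IB. The IB piglets thus covered nearly the whole range of the gene, and 7 of 14 IB piglets lay below every DU×IB piglet. The mean was 6.49 ± 0.53 in DU×IB and 5.41 ± 1.02 in IB (SD, n = 14 each), a difference of 1.09 (SE 0.29, 2.12-fold, limma, adjusted p = 0.0924). It was 0.0444 with the series as a block, a call that all 28 fits leaving out 1 piglet kept. Over the 28 arrays without the block, the call was lost without any 1 of 19 piglets (adjusted p up to 0.174).

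LOXL1 was also the member with the largest gap between the series. In the series of 12 the 6 DU×IB piglets read 6.15 to 7.30 and the 6 IB piglets 3.66 to 5.99, with no overlap, whereas in the series of 16 the ranges were 5.34 to 7.28 and 4.06 to 7.16. Groups with no overlap and the higher values in DU×IB made up 1.26% of all probe sets in the series of 12. The difference was 1.68 there (limma, adjusted p = 0.0694) and 0.64 in the series of 16 (adjusted p = 0.997). The test of that gap did not pass (interaction 1.04, SE 0.55, limma, p = 0.0700, adjusted p = 0.781). In this interaction test, in which the difference in the series of 12 was set against that in the series of 16, none of the 7 probe sets passed, nor did any of the 5226, although 333 had an unadjusted p under 0.05.

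**Figure D3:**
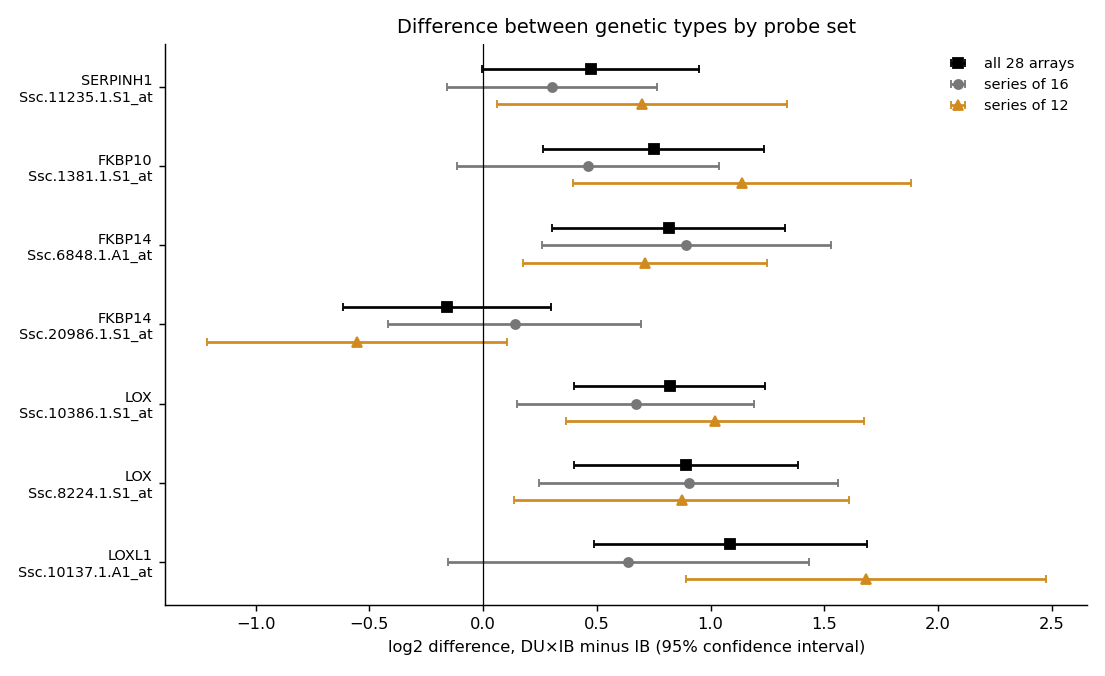
Log2 difference, DU×IB minus IB, with its 95% confidence interval for each of the 7 probe sets, over all 28 arrays (squares), within the series of 16 (circles) and within the series of 12 (triangles). Of the 7 probe sets, 6 lie above 0 in each of the 3 estimates, and FKBP14 Ssc.20986.1.S1_at changes sign between the series.

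Taking each series by itself, 6 of the 7 probe sets had a difference above 0 in both, which held for 29.6% of all probe sets. The 6 include the 5 of the study's table, so this count is not independent evidence either. None of the 7 passed in the series of 16, where 0.153% of all probe sets were called higher, and LOXL1 alone passed in the series of 12, where 2.39% were.

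Apart from genetic type, some of the members varied together from piglet to piglet. Each value was taken as its deviation from the mean of its genetic type within its series, and the 21 pairs of probe sets were correlated within each series, with p-values adjusted over all 42 correlations. The median r was 0.42 in the series of 16 and 0.49 in the series of 12. Of the pairs, 8 passed in the series of 16 and 6 in the series of 12, all of them with a positive r, and 13 and 15 did not. Without the 2 piglets farthest from the median, 5 of those 8 and 3 of those 6 still passed. These piglets were chosen by their level on the first probe set of the pair alone, in the order LOX, LOXL1, FKBP10, FKBP14, SERPINH1. Leaving them out also narrows the range of that probe set. The median r of a member with all other probe sets lay between −0.08 and 0.22, and its 95th percentile between 0.50 and 0.76, so that the median r between members lay within the range of r with any probe set. The lowest r that passed was 0.60 in each series, a value that 6.32% of all pairs of a member with any other probe set reached in the series of 16 and 4.98% in the series of 12.

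The LOX probe sets formed the tightest pair, with r = 0.92 (Spearman's rho 0.92, permutation, adjusted p = 0.00196 and 0.00126) over 16 piglets and r = 0.89 (rho 0.88, adjusted p = 0.00403 and 0.0120) over 12. Without the 2 piglets farthest from the median, r was 0.87 and 0.84. Reading the same gene, they differed between piglets almost in parallel.

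The folding genes FKBP10 and SERPINH1 moved together at r = 0.75 (rho 0.66, permutation, adjusted p = 0.00672 and 0.0489) over 16 piglets. Over 12 piglets r was 0.74 (rho 0.63, adjusted p = 0.0872 and 0.172). It was 0.46 once the 2 farthest piglets were left out (adjusted p = 0.531), and so no longer passed. FKBP10 was also tied to the cross-linking genes. With LOXL1 it reached r = 0.86 (rho 0.75, permutation, adjusted p = 0.00196 and 0.0218) over 16 piglets and r = 0.68 (adjusted p = 0.126) over 12. With LOX Ssc.8224.1.S1_at it reached r = 0.79 (rho 0.78, permutation, adjusted p = 0.00546 and 0.0295) over 12 piglets and r = 0.41 (adjusted p = 0.235) over 16. Whether these pairs differed between the series was not tested.

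LOX Ssc.8224.1.S1_at and LOXL1, the enzymes of the same reaction, had r = 0.60 in each series (permutation, adjusted p = 0.0595 over 16 piglets and 0.0802 over 12). Without the 2 farthest piglets this became 0.57 (adjusted p = 0.158) over 16 piglets and 0.74 (adjusted p = 0.0418) over 12. The other LOX probe set, Ssc.10386.1.S1_at, did not pass with LOXL1 by r in either series (r = 0.51, adjusted p = 0.126, and r = 0.47, adjusted p = 0.157). By rho it did not pass over 16 piglets (0.54, permutation, adjusted p = 0.133) and passed over 12 (0.62, adjusted p = 0.0991). Whether the LOX probe sets differed in this relation was not tested. SERPINH1 had r between 0.12 and 0.37 with either LOX probe set in either series, and none of these passed. Whether SERPINH1 differed from the other members in its relation to LOX was not tested.

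For the FKBP14 probe sets, the pairs that passed were not the same. Ssc.20986.1.S1_at, the one without a difference between genetic types, followed FKBP10 (r = 0.86, rho 0.81, permutation, adjusted p = 0.00196 and 0.00728), SERPINH1 (r = 0.79, rho 0.83, adjusted p = 0.00403 and 0.00630) and LOXL1 (r = 0.67, rho 0.63, adjusted p = 0.0445 and 0.0741) over 16 piglets. Of these the LOXL1 relation no longer passed without the 2 farthest piglets (r = 0.54, adjusted p = 0.150), while those with FKBP10 and SERPINH1 did (r = 0.81 and 0.79, adjusted p = 0.0141 for each). In the series of 12 none of these 3 pairs passed (r = 0.55, 0.49 and 0.25, in the same order). Ssc.6848.1.A1_at passed with no other gene in either series. With the same 3 genes, in the same order, its r was 0.42, 0.09 and 0.42 over 16 piglets. Over 12 piglets it was 0.70 (permutation, adjusted p = 0.106), 0.40 and 0.31. Whether the FKBP14 probe sets differed in these relations was not tested. With each other the FKBP14 probe sets had r = 0.38 (adjusted p = 0.285) over 16 piglets and r = 0.80 (adjusted p = 0.0725) over 12, where rho was 0.57 (adjusted p = 0.182) and r without the 2 farthest piglets 0.53 (adjusted p = 0.361). The second of these relations thus did not pass by rho or without those piglets.

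**Figure D4:**
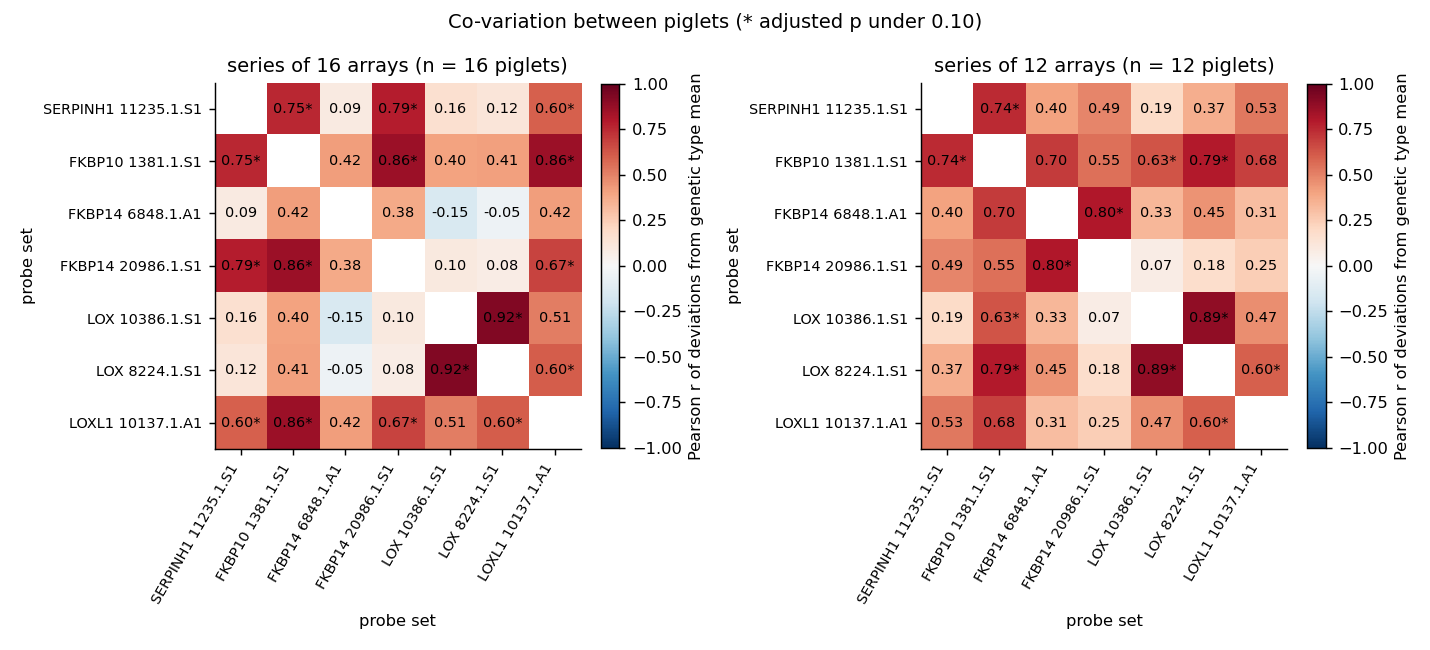
Pearson's r between the 7 probe sets over the piglets of the series of 16 arrays (left) and of 12 arrays (right), on deviations from the genetic type mean; stars mark an adjusted p under 0.10, which 8 of 21 pairs reached on the left and 6 of 21 on the right. The darkest cells outside the LOX pair are those of FKBP10 with LOXL1 and with FKBP14 Ssc.20986.1.S1_at on the left.

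Among all named genes in the matrix, those whose deviations followed a member most closely were ranked by r over the 28 piglets, as a description without a test. For LOX Ssc.10386.1.S1_at they were EGFL6 (0.79), FMOD (0.74) and GPX7 (0.73), and for LOX Ssc.8224.1.S1_at COL1A1 (0.78), FMOD (0.77) and EGFL6 (0.76). Fibromodulin and the type I collagen chain thus stood in the nearest 3 of a LOX probe set. FKBP10 was followed by COPZ2 (0.91) and COL1A1 (0.83), and LOXL1 by HOXB7 (0.83), COPZ2 (0.82) and PRPF19 (0.80). SERPINH1 was followed by SELENON (0.84), MAP1B (0.83) and THY1 (0.83). The FKBP14 probe sets had no gene in common: Ssc.20986.1.S1_at was followed by LMNB1 (0.81), FSCN1 (0.77) and PER3 (0.77), whereas Ssc.6848.1.A1_at was followed by GRN Ssc.20986.2.S1_at (0.89), DCLK1 (0.82) and TRIM55 (0.81).

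The members were then set beside the genes that work before and after them. In the endoplasmic reticulum, 7 of 23 listed genes of collagen folding and modification were in the matrix. None was called over the 28 arrays, and their median difference was 0.17. RCN1, a calcium-binding protein of this compartment, rose by 0.63 when the series was a block (limma, adjusted p = 0.0312), and no other listed gene was called in that fit. The other listed genes in the matrix had differences of 0.47 (FKBP9L), 0.35 (P3H4), 0.17 (the lysyl hydroxylase PLOD1) and 0.14 (CALU). Below 0 were the prolyl hydroxylase subunit P4HA2 (−0.04) and TMEM38B (−0.17). For export and proteolytic processing of procollagen, 3 of 13 genes were in the matrix: SEC23A (−0.06) and SEC24D (0.04) of the vesicle coat, and BMP1 (0.11), the protease that trims procollagen and activates the LOX precursor. None of these was called in either fit. No probe set of the filtered matrix carried the name of the remaining lysyl oxidases LOXL2, LOXL3 and LOXL4.

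The general chaperones and other FKBP proteins had a median difference of 0.06 over the 12 of 22 listed genes in the matrix, beside 0.02 over all probe sets, and none was called over the 28 arrays. With the series as a block FKBP1A, a small cytosolic FKBP, rose by 0.54 (limma, adjusted p = 0.0609), the only gene of the list called in that fit when each gene goes by 1 probe set. ERO1L, which reoxidizes disulfide isomerase, had a difference of −0.48 (adjusted p = 0.190 with the block) on the probe set that stands for it here and one of −0.81 (0.0195) on its other probe set. The main chaperone HSPA5 (BiP) had a difference of 0.03 and HSP90B1 one of 0.23. With each gene on 1 probe set, the list ran from −0.57 (DNAJB9) to 1.03 (UGGT2, limma, adjusted p = 0.106 with the block). Of the 12 genes, 7 lay above 0. Of the LOX regulators and copper suppliers, 2 of 13 were in the matrix, and TGFB1 (0.04) and HIF1A (0.31) were not called in either fit.

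The substrates and partners outside the cell had list medians between 0.45 and 0.88. All 3 of the 11 fibrillar collagen genes that were in the matrix were higher in DU×IB, with a median difference of 0.73, and all 3 passed with the series as a block though none did over the 28 arrays: COL1A1 (1.21; limma, adjusted p = 0.0270 with the block), COL5A1 (0.73; 0.0237) and COL24A1 (0.56; 0.0887). Of 4 other collagens, out of 33 listed, COL12A1 (1.52; adjusted p = 0.0432) and COL14A1 (0.70; 0.0456), both carried on the surface of fibrils, passed over the 28 arrays, and COL16A1 (0.60; 0.0510) with the block. Their median was 0.65. Over all probe sets, 0.765% were called higher over the 28 arrays and 2.07% with the block. All 3 fibrillar and 3 of the 4 other collagens in the matrix stand in the study's table. These counts are therefore not independent evidence.

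Of the elastic fibre and microfibril list, 7 of 18 genes were in the matrix, with a median difference of 0.45. FBN2 (0.96; limma, adjusted p = 0.0298) and MFAP4 (0.82; 0.0961) rose over the 28 arrays, and EMILIN3 (0.56; 0.0329) with the block. Of the proteins of the fibril surface and known LOX partners, 10 of 15 were in the matrix and their median difference was 0.88. KERA (1.93; adjusted p = 0.00529), FMOD (1.93; 0.00858) and THBS2 (1.26; 0.0353) rose over the 28 arrays. With the block POSTN, which helps to activate LOX in mice, rose by 1.29 (adjusted p = 0.0634), ASPN by 1.11 (0.0758) and THBS4 by 0.65 (0.0887). Every one of these called matrix genes stands in the study's table, so their direction is not independent evidence either. That table also supplied names and decided between probe sets of a gene, so the medians of the lists are not independent evidence.

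**Figure D5:**
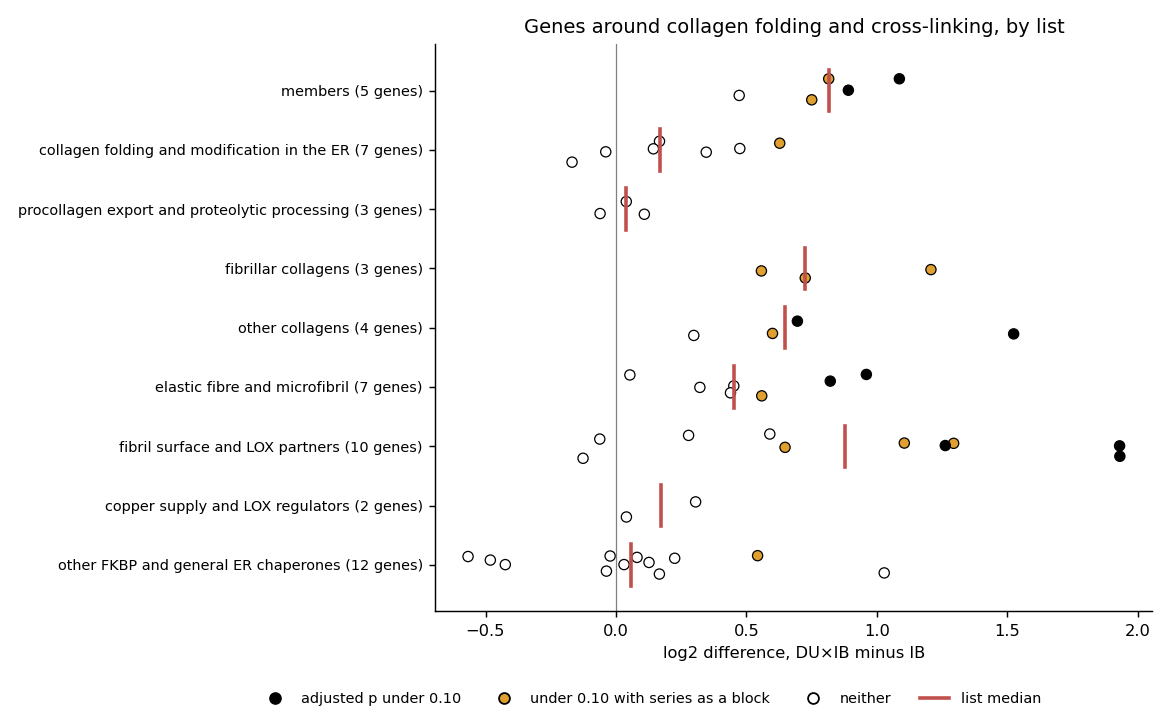
Log2 difference, DU×IB minus IB, of each measured gene of the 5-gene group and of the lists around it, 1 point per gene; black points passed an adjusted p of 0.10 over the 28 arrays, orange points did not and passed with the series as a block, and the red line is the list median. Medians lie at 0.82 for the group, at 0.88 for the fibril surface list and at 0.06 for the other FKBP and general chaperones.

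Markers of the cell types that a loin sample could hold were measured beside these genes. Of 9 fibroblast markers only THY1 was in the matrix, and its log2 level ran from 8.25 to 9.96 in DU×IB and from 6.75 to 10.01 in IB (difference 0.71; limma, adjusted p = 0.427). Of 10 tendon and cartilage markers, 4 were in the matrix, of which KERA and FMOD passed over the 28 arrays, THBS4 with the series as a block, and CILP had a difference of −0.42. The mean of these 4 ran from 9.47 to 11.41 in DU×IB and from 8.19 to 10.77 in IB, and KERA, FMOD and THBS4 are also in the list of fibril surface and LOX partners. None of the 4 smooth muscle, 4 endothelial, 5 macrophage, 3 adipocyte or 2 blood markers in the matrix was called in either fit. Their median differences were 0.35, 0.19, −0.37, −0.43 and 0.06, in that order, all 5 macrophage markers being below 0. The numbers of markers above 0 were 3, 3, 0, 1 and 1, in the same order, the adipocyte one being FABP4 (0.37). The mean level of the macrophage markers ran from 5.32 to 6.20 in DU×IB and from 5.38 to 7.80 in IB. The part of the tendon, fibroblast or other markers in the differences of LOX, LOXL1, FKBP10, FKBP14 and SERPINH1 was not tested.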

How the data were processed

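Total RNA of 28 loin samples was hybridized to the Affymetrix Porcine Genome Array, 1 array per piglet. The deposited values are log2 expression levels that the authors made with GCOS and GCRMA normalization in BRB-ArrayTools, after a filter on variation, which left 5226 probe sets in the matrix (levels 1.44 to 15.74). They were used as deposited. Names came from the study's table of differential probe sets (271), else from the platform annotation (2209), and 2746 probe sets had no name here; no genome build is given with the files, and no coordinates are printed. A gene was counted as in the matrix when a probe set carried its name, so a gene counted as absent may be read by an unnamed probe set. Only names were taken from the study's table, and its ratios and posterior probabilities were not used.

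Genetic types were compared with limma 3.58.1 in R 4.3.3 (lmFit and eBayes, no covariate, two-sided), with Benjamini-Hochberg adjustment over all 5226 probe sets and a threshold of 0.10. The hybridization series was recovered by splitting the mean of 10 bioB and bioC spike-in probe sets at its largest gap, and was used as a block, as an interaction and to fit each series alone. Permutation tests drew 100000 resamples, except the tests of paired probe sets within a series, which were exact. The piglet numbers of the labels were not taken as pairs, since nothing says that equal numbers share a litter or a batch. All 14 equal-numbered pairs lay within a series. On simulated data with 200 changed probe sets, limma recovered 41 of 50 at a log2 change of 1 and 5 of 50 at 0.5. The number of arrays limits the precision.

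From each list around the members, up to 6 genes past the threshold with or without the series block were named by lowest p, or else up to 3 of lowest p; further genes were named after their values were seen. A listed gene with several probe sets was represented by the one in the study's table, and otherwise, or among several there, by the one of highest mean level. The members and the lists were chosen with earlier results of these data known. Of the genes ranked by their likeness to a member, 1 is not reported here.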

Additional observations from a re-analysis of the deposited data

How the results depend on the processing

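Of the alternatives to the fit over 28 arrays, those that changed the array scale moved the calls apart. The probe sets are given below in the order LOX Ssc.10386.1.S1_at, LOX Ssc.8224.1.S1_at, LOXL1. Array median centring gave differences of 0.79, 0.86 and 1.06 (limma, adjusted p = 0.139, 0.141 and 0.187), and quantile normalization 0.79, 0.87 and 1.04 (0.129, 0.125 and 0.166), so that none of the 3 passed, while FKBP14 Ssc.6848.1.A1_at passed in both (0.79, adjusted p = 0.0486, and 0.77, 0.0594), leaving 1 member called. The cause was not tested. Centring with the series as a block, added after the data were seen, called all 3 and FKBP14 Ssc.6848.1.A1_at (0.79, adjusted p = 0.0214). With the series as a block alone, FKBP10 (0.75) and FKBP14 Ssc.6848.1.A1_at (0.82) passed as well, making 5 members called, and with a replicate block, which ties piglets of equal number, the same 5 passed with the same differences (FKBP10 0.75 with adjusted p = 0.0473, FKBP14 Ssc.6848.1.A1_at 0.82 with 0.0204). The deviations of equal-numbered piglets correlated at 0.02 to 0.73, and at −0.33 to 0.54 within the series. With array weights LOX Ssc.8224.1.S1_at did not pass (0.82, adjusted p = 0.115) and FKBP14 Ssc.6848.1.A1_at did (0.78, 0.0512). At a threshold of 0.05 no member passed without the block (0.82, 0.89 and 1.09).

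With fewer arrays, the series of 16 gave 0.67, 0.90 and 0.64 for those 3 probe sets and 0 members called (9 of all 5226 called by limma, 231 at an unadjusted p under 0.05), and the series of 12 gave 1.02 and 0.87 for LOX, which did not pass, and 1 member called. FKBP14 Ssc.20986.1.S1_at turned to 0.14 in the series of 16, and the difference between the LOX probe sets to −0.15 in the series of 12. Probe sets called higher in DU×IB numbered 40 over 28 arrays, 108 with the series block, 113 with the replicate block, 65 with array weights, 81 with centring and block, 8 and 125 in the series of 16 and of 12, and 25 at the threshold of 0.05. Those called lower numbered 12, and 37, 32, 31, 41, 1 and 104 in the same order up to the series.

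Leaving out each piglet in turn, the differences ran from 0.72 to 0.87 for LOX Ssc.10386.1.S1_at, 0.80 to 0.97 for LOX Ssc.8224.1.S1_at, 0.95 to 1.22 for LOXL1, 0.64 to 0.85 for FKBP10, 0.69 to 0.93 for FKBP14 Ssc.6848.1.A1_at, −0.23 to −0.06 for FKBP14 Ssc.20986.1.S1_at and 0.34 to 0.54 for SERPINH1. FKBP10 passed without IB replicate 2 (0.85, adjusted p = 0.0890). Members called ran from 0 to 4, with 0 without DU×IB replicate 7, IB replicate 8 or IB replicate 12, and from 4 to 5 with the series as a block. All probe sets called higher ran from 24 to 51, with 24 without DU×IB replicate 7 and 26 without IB replicate 12, and those lower from 9 to 15. The probe set difference stayed between 0.87 and 1.12 for FKBP14 and between 0.03 and 0.13 for LOX. A trended and robust prior and leaving out dim probe sets changed no member's call. The median r between members kept within its spread under each alternative in both series (SD over pairs 0.32 and 0.23). Of the 14 pairs that passed, 8 did so without the 2 farthest piglets.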
